A study of Homo sapiens with 6 samples.

Results

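ATF4, DDIT3, TRIB3, ASNS, CHAC1, SESN2, DDIT4, VLDLR, PPP1R15A and CEBPB, genes of the integrated stress response, were followed in DBTRG cells, an established human glioblastoma line labelled as wild type. The 10 genes were taken by symbol from a table of 58884 genes, each symbol had a single row, and all 10 passed the filter on low counts that left 16098 genes to test. The cultures ran for 5 days, either on a rigid dish, labelled 2D, or with a soft gel, labelled 3D, and each group had 3 RNA sequencing libraries. The labels name no other treatment, do not say what the gel was made of and do not say whether the replicates were separate cultures. Each p-value therefore reflects the variation from library to library alone, part of which could be technical.

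In the integrated stress response, kinases that sense amino acid shortage, misfolded protein in the endoplasmic reticulum (ER), double-stranded RNA or heme lack phosphorylate the translation factor eIF2 alpha. General protein synthesis falls, while the mRNA of ATF4, a basic leucine zipper transcription factor, is translated more because of short upstream reading frames in its leader. ATF4 then pairs with C/EBP proteins and switches on genes for amino acid supply, redox balance and feedback control. RNA levels do not report the translation of ATF4, and in bulk RNA fewer expressing cells cannot be told apart from less RNA per cell.

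Libraries held 20911363 to 25901499 counts. Rigid dish 1 stood apart from the other rigid dish libraries on the second principal component (17.3% of the variance), at 36.6 against -3.52 and -19.1, so the fold changes of the 10 genes and the counts of the gene lists are given with and without it. On the first component (64.2%), soft gel 3 was at 19.6, against 39.1 and 46.4 for soft gel 1 and 2. The glioma genes VIM, NES, CD44 and EGFR were at 94.1 CPM or more (read counts scaled to library size by TMM) in every library, and SOX2 at 59.8 to 99.3 CPM, while GFAP, S100B and CHI3L1 stayed under 2 CPM and OLIG2 was at 0 counts. Of this list VIM, NES and EGFR were lower in soft gel and CD44 and SOX2 higher. Of 6 immune markers, PTPRC, CD3E, AIF1, CD14 and CSF1R were near 1 CPM or lower in every library, and CD68 rose, which took the summed list from 10.8 to 16.2 CPM on the rigid dish to 39.6 to 46.5 CPM in soft gel. Of 4 epithelial markers, KRT8 and KRT18 fell and EPCAM and CDH1 were near 0, with sums of 233 to 342 and 126 to 145 CPM. Endothelial markers (4 genes) summed to under 1 CPM in every library. Fibroblast markers (5 genes, DCN at 0) summed to 12.1 to 14.1 CPM against 4.74 to 7.27 CPM in soft gel, and neuron (14.3 to 17.2 against 12.2 to 16.8 CPM) and oligodendrocyte markers, nearly all MBP (107 to 115 against 99.8 to 124 CPM), overlapped. The part of these markers in the results below was not tested.

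The stress response genes showed 3 patterns. ATF4, TRIB3, ASNS, CHAC1, SESN2, DDIT4 and CEBPB were high in rigid dish 2 and 3 and low in soft gel and in rigid dish 1. DDIT3 and PPP1R15A were low in rigid dish 1 only, and VLDLR was slightly higher in every soft gel library than in any rigid dish library. Of the 10 genes, 3 were lower in soft gel (ATF4, TRIB3 and DDIT4) and 1 was higher (VLDLR) by edgeR's quasi-likelihood test at a Benjamini-Hochberg adjusted p below 0.05, against 13.2% and 15.4% of all tested genes (28.6% in both directions). Without rigid dish 1, 7 were lower and 0 higher (1 at an unadjusted p below 0.05), against 17.7% and 19.6% of all genes (37.2% in both directions). In these 7 genes rigid dish 1 lay within or below the range of soft gel. Leaving it out therefore by itself widens the gap and narrows the spread. The values without it, here and below, describe rigid dish 2 and 3 against soft gel and are no separate evidence of a fall. Their median log2 fold change was -1.16, and -1.56 without rigid dish 1, where the medians over all tested genes were 0.05 and 0.07. With all libraries, the groups did not overlap for 0 of the 10 in the lower direction (21.1% of all genes) and for 1 in the higher direction (23.5%).

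**Figure D1:**
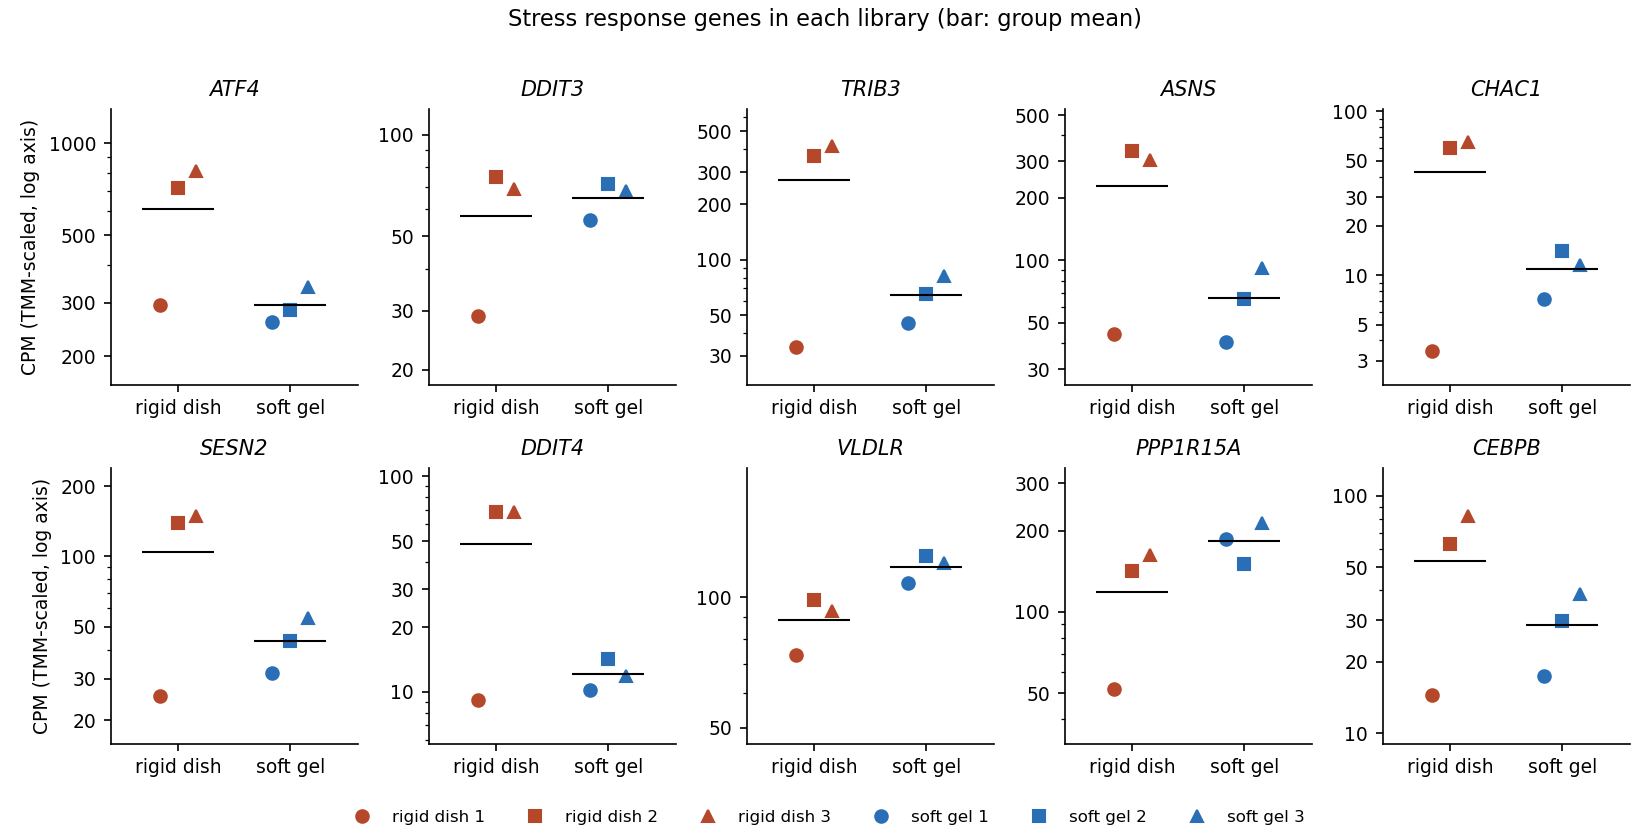
CPM (TMM-scaled, log axis, a different range in each panel) of the 10 stress response genes in each library, with bars at the group means. Rigid dish 1 (circle) lies far below rigid dish 2 and 3 in every panel except that of VLDLR, and soft gel lies near rigid dish 1 for ATF4, ASNS and DDIT4 but near rigid dish 2 and 3 for DDIT3 and PPP1R15A.

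The promoters that carried a searched element are shown because ATF4 and its C/EBP partners are known to bind the C/EBP-ATF response element, whose core is TGATGNAA, in the promoters of ASNS and CHAC1 among others. The windows ran from 250 bases before to 50 after each annotated start (RefSeq, GRCh38.p14), and both strands were searched. TGATGNAA was found in 2 of the 10 genes, ASNS and CHAC1, and in 4.46% of all 27305 genes with a window. The cAMP response element TGACGTCA was found in PPP1R15A alone among the 10, and in 2.25% of all genes. The ER stress response element was found in none of the 10 and in 0.0916% of all genes. The 250 bases before the annotated start that held the match are printed 5′ to 3′ on the gene's strand with the match in capitals, from chr7:97872409-97872658 (minus strand), chr15:40953221-40953470 (plus) and chr19:48872171-48872420 (plus). The match began 68 bases before the start of ASNS, 209 before that of CHAC1, where the element lies on the opposite strand, and 58 before that of PPP1R15A. RefSeq and GENCODE starts differ, and by the GENCODE gene bounds given below the matches of ASNS and CHAC1, and the whole CHAC1 stretch, lie inside the gene.
ASNS: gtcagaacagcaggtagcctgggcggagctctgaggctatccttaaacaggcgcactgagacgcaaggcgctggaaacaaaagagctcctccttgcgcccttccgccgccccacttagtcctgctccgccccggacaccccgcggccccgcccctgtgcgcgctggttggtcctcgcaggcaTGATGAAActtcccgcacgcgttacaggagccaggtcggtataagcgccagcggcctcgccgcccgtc
CHAC1: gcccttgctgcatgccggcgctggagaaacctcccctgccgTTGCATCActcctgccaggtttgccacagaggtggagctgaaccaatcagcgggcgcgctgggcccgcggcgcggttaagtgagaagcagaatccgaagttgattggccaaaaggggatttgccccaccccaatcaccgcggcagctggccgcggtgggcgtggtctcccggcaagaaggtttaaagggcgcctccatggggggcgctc
PPP1R15A: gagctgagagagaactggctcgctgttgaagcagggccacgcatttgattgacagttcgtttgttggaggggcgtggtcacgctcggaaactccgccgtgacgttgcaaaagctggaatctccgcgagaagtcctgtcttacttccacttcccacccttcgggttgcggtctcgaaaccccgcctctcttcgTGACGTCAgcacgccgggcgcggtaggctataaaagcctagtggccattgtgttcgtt
A match is a description of these letters and not a measured binding site.

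ATF4 (ENSG00000128272, hg38 chromosome 22, 39519695 to 39522685, plus strand) held 296, 714 and 811 CPM in rigid dish 1, 2 and 3 and 259, 285 and 338 CPM in soft gel 1, 2 and 3. Rigid dish 2 and 3 were high, and rigid dish 1 lay within the range of soft gel. The group means were 607 ± 274 CPM for the rigid dish against 294 ± 40.6 CPM for soft gel (SD, n = 3 each), and the log2 fold change was -1.05 (SE 0.31, edgeR adjusted p = 0.0335). Without rigid dish 1 it was -1.38 (SE 0.13, edgeR adjusted p = 0.000162). Per gene length, ATF4 was the most abundant of the 10 in both groups, at 644 ± 243 TPM (a unit scaled by length and library) in rigid dish libraries against 331 ± 33.8 TPM in soft gel. Its pseudogenes ATF4P1 to ATF4P4 were under 1 CPM in every library.

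TRIB3, DDIT3 and CEBPB encode proteins that act beside ATF4. TRIB3 is a pseudokinase that ATF4 and DDIT3 induce and that in turn restrains ATF4. TRIB3 (ENSG00000101255, hg38 chromosome 20, 362835 to 397559, plus strand) held 33.5, 369 and 414 CPM in rigid dish 1, 2 and 3 and 45.2, 65.3 and 82.0 CPM in soft gel 1, 2 and 3. Rigid dish 1 was the lowest of all 6 libraries, and rigid dish 2 and 3 were each above every soft gel library. The log2 fold change was -2.08 (SE 0.69, edgeR adjusted p = 0.0498), and -2.62 without rigid dish 1 (SE 0.20, edgeR adjusted p = 8.34e-05). CEBPB, a C/EBP family transcription factor that can pair with ATF4 (ENSG00000172216, hg38 chromosome 20, 50190734 to 50192689, plus strand), held 14.5, 62.8 and 82.0 CPM in rigid dish 1, 2 and 3 and 17.5, 29.8 and 38.6 CPM in soft gel 1, 2 and 3. Rigid dish 1 was again the lowest library and rigid dish 2 and 3 the highest, but its log2 fold change of -0.89 (SE 0.52) did not pass (edgeR adjusted p = 0.215), whereas without rigid dish 1 it fell (-1.35, edgeR adjusted p = 0.00472).

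DDIT3, which encodes CHOP, the factor linked to cell death under lasting ER stress (ENSG00000175197, hg38 chromosome 12, 57516588 to 57521737, minus strand), held 28.9, 74.8 and 69.0 CPM in rigid dish 1, 2 and 3 and 55.7, 71.7 and 67.9 CPM in soft gel 1, 2 and 3. All soft gel libraries were near rigid dish 2 and 3, and rigid dish 1 was the low one. The log2 fold change was 0.18 (SE 0.30, edgeR adjusted p = 0.674), and its sign turned without rigid dish 1 (-0.15, edgeR adjusted p = 0.4). Exons of DDIT3 overlap those of MARS, the methionyl-tRNA synthetase gene, on the opposite strand. They also overlap exons of MBD6 on the opposite strand (1981 to 2868 counts) and of AC022506.1 on the same strand (0 to 2.78 counts). MARS held 296, 722 and 713 CPM in rigid dish 1, 2 and 3 and 263, 294 and 322 CPM in soft gel 1, 2 and 3, and because no strand setting is stated, reads of a shared stretch cannot be told apart.

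ASNS and CHAC1 encode metabolic enzymes. ASNS makes asparagine and is a standard readout of amino acid shortage, and CHAC1 degrades glutathione. ASNS (ENSG00000070669, hg38 chromosome 7, 97852118 to 97872542, minus strand), whose promoter match is shown above, held 44.3, 336 and 306 CPM in rigid dish 1, 2 and 3 and 40.4, 64.9 and 91.9 CPM in soft gel 1, 2 and 3. Rigid dish 1 lay within the soft gel range, and rigid dish 2 and 3 lay above it. The log2 fold change of -1.80 (SE 0.61) just missed the threshold (edgeR adjusted p = 0.0522), and without rigid dish 1 it was -2.29 (SE 0.26, edgeR adjusted p = 0.000415). AC079781.5, an annotated transcript on the same strand, shares exon sequence with ASNS and held 514 to 1222 counts, so some reads of either could be split. CHAC1 (ENSG00000128965, hg38 chromosome 15, 40952962 to 40956519, plus strand) held 3.44, 60.0 and 64.8 CPM in rigid dish 1, 2 and 3 and 7.12, 14.0 and 11.5 CPM in soft gel 1, 2 and 3. Rigid dish 1 was 16.0-fold below the mean of rigid dish 2 and 3 on the log2(CPM + 0.5) scale, the largest such difference of the 10 genes. The log2 fold change was -1.97 (SE 0.78, edgeR adjusted p = 0.0825), and -2.52 without rigid dish 1 (SE 0.23, edgeR adjusted p = 0.000144).

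SESN2 and DDIT4 encode brakes on mTORC1, the kinase complex that couples nutrients to growth. SESN2, sestrin 2, binds leucine and acts through GATOR2 (ENSG00000130766, hg38 chromosome 1, 28259527 to 28282491, plus strand). It held 25.4, 138 and 149 CPM in rigid dish 1, 2 and 3 and 31.9, 43.7 and 54.8 CPM in soft gel 1, 2 and 3. DDIT4, also called REDD1, acts through TSC2 (ENSG00000168209, hg38 chromosome 10, 72273920 to 72276036, plus strand). It held 9.21, 68.3 and 68.4 CPM in rigid dish 1, 2 and 3 and 10.2, 14.2 and 11.8 CPM in soft gel 1, 2 and 3. In both genes rigid dish 1 was the lowest library and rigid dish 2 and 3 the highest. The log2 fold change of DDIT4 was -2.00 (SE 0.58, edgeR adjusted p = 0.0317), and -2.50 without rigid dish 1 (SE 0.15, edgeR adjusted p = 2.33e-05). That of SESN2 was -1.26 (SE 0.52) and did not pass (edgeR adjusted p = 0.0939), but without rigid dish 1 it fell (-1.74, SE 0.19, edgeR adjusted p = 0.000356).

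PPP1R15A and VLDLR, like DDIT3, did not follow ATF4 between the groups. PPP1R15A encodes GADD34, which directs a phosphatase to eIF2 alpha and so ends the response (ENSG00000087074, hg38 chromosome 19, 48872392 to 48876057, plus strand). It held 51.9, 142 and 163 CPM in rigid dish 1, 2 and 3 and 187, 151 and 214 CPM in soft gel 1, 2 and 3. Rigid dish 1 was low, and soft gel overlapped with rigid dish 2 and 3. The log2 fold change was 0.63 (SE 0.34, edgeR adjusted p = 0.192), and 0.26 without rigid dish 1 (edgeR adjusted p = 0.187). Immediate early genes, with which PPP1R15A is often induced when cells are dissociated, were higher in soft gel for 6 of 13 tested genes and lower for 0 (0 at an unadjusted p below 0.05, 0 by DESeq2), against 15.4% and 13.2% of all tested genes. These counts were 7 higher and 1 lower without rigid dish 1, and 5 to 8 higher and 0 to 1 lower over all alternatives. FOS, one of them, held 1.16, 1.77 and 2.06 CPM in rigid dish 1, 2 and 3 and 133, 75.3 and 107 CPM in soft gel 1, 2 and 3, and rigid dish 1 did not stand apart there. Their part in the level of PPP1R15A was not tested. VLDLR, a lipoprotein and reelin receptor that ATF4 can induce (ENSG00000147852, hg38 chromosome 9, 2621834 to 2660053, plus strand), held 73.5, 98.7 and 93.1 CPM in rigid dish 1, 2 and 3 and 108, 124 and 119.9 CPM in soft gel 1, 2 and 3. Every soft gel library was above every rigid dish library, and the log2 fold change came to 0.41 (SE 0.13, edgeR adjusted p = 0.047). Without rigid dish 1 it was 0.29 and did not pass (edgeR adjusted p = 0.0699).

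The calls rested on few libraries. On leaving out rigid dish 2, rigid dish 3, soft gel 1 or soft gel 2, none of the 10 genes passed edgeR's test, while 3, 4, 3 and 4 were lower and 1, 2, 1 and 1 higher at an unadjusted p below 0.05. Calls over all genes were 2026, 3180, 1963 and 1803 in these runs (936, 1809, 864 and 797 lower). With all libraries they were 4603 (2123 lower). Leaving out soft gel 3 kept ATF4 and added ASNS. Over the omissions that ended its call, the edgeR adjusted p ran from 0.0749 to 0.118 for ATF4 (without rigid dish 2 or 3 or soft gel 1 or 2), from 0.0648 to 0.152 for TRIB3 and from 0.0595 to 0.107 for DDIT4 (those and soft gel 3), and from 0.0699 to 0.158 for VLDLR (any library). In the authors' deposited table, ATF4 (adjusted p = 0.0253) and DDIT4 (0.0409) were below 0.05, and none of the 10 was marked as significant. That mark therefore did not follow from an adjusted p below 0.05 alone. In all, 5036 genes of that table were below 0.05. Its log2 ratios were smaller in size for all 10 genes. They were -0.875 for ATF4, -0.845 for TRIB3 and -0.996 for DDIT4, against -1.05, -2.08 and -2.00 by edgeR. The cause of this difference was not tested.

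**Figure D2:**
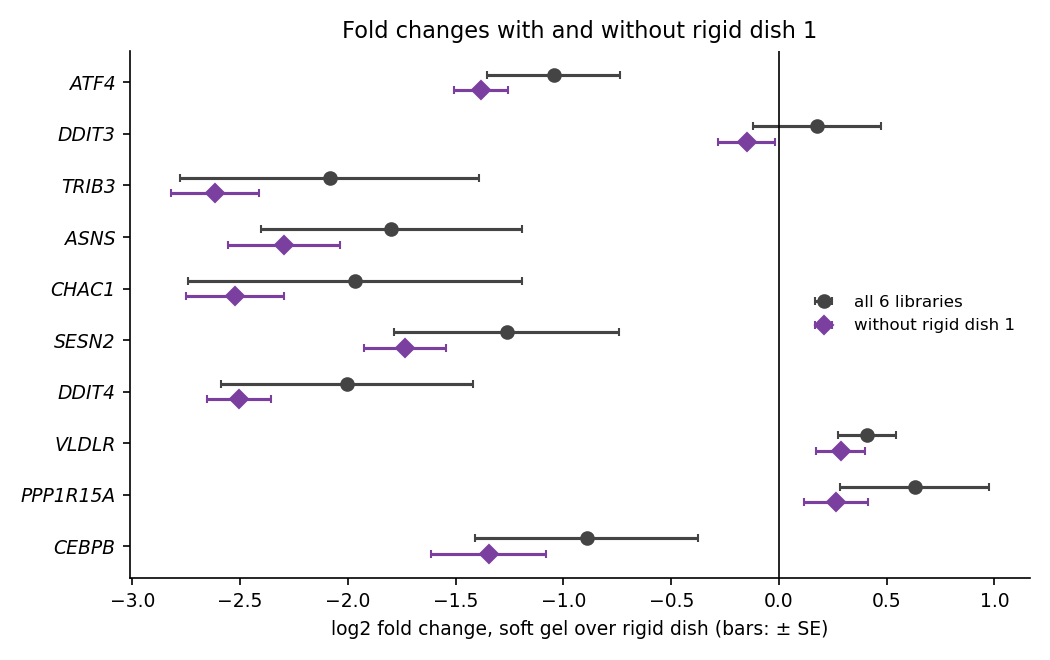
Log2 fold change, soft gel over rigid dish, of each stress response gene with all 6 libraries (circles) and without rigid dish 1 (diamonds); bars are ± 1 SE. Leaving out rigid dish 1 narrows the bars and moves every value to the left, and DDIT3 crosses from 0.18 to -0.15.

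Rigid dish 1 was also compared directly with the other rigid dish libraries. It was at least 2-fold below the mean of rigid dish 2 and 3 in 9 of the 10, against 1.28% of all tested genes (206 genes). Ordered by this ratio over the 16098 tested genes, CHAC1 was the lowest of all (-4.00 on the log2(CPM + 0.5) scale), TRIB3 was in place 3 (-3.53), ASNS in place 7 (-2.84), DDIT4 in place 8 (-2.83), SESN2 in place 16 (-2.48) and CEBPB in place 22 (-2.28). PPP1R15A (-1.54), ATF4 (-1.37) and DDIT3 (-1.30) followed, and VLDLR (-0.38) was the 1 gene less than 2-fold lower. No soft gel library was 2-fold away from the mean of the other 2 in any of the 10 genes. Over all tested genes, 0.466%, 0.286% and 1.67% (269 genes) were at least 2-fold below that mean in soft gel 1, 2 and 3. At least 2-fold above it were 0.242%, 0.367% and 0.230%. The count of 0 among the 10 is near these shares. All these ratios compare single libraries, so they have no replicate check and no test. Rigid dish 1 lay below every soft gel library in 8 of the 10 genes and within their range in 2, ATF4 and ASNS. How many of all tested genes it did so in was not counted, so the 8 are not shown to be unusual. In 23.5% of all tested genes, VLDLR among them, every rigid dish library lay below every soft gel library.

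**Figure D3:**
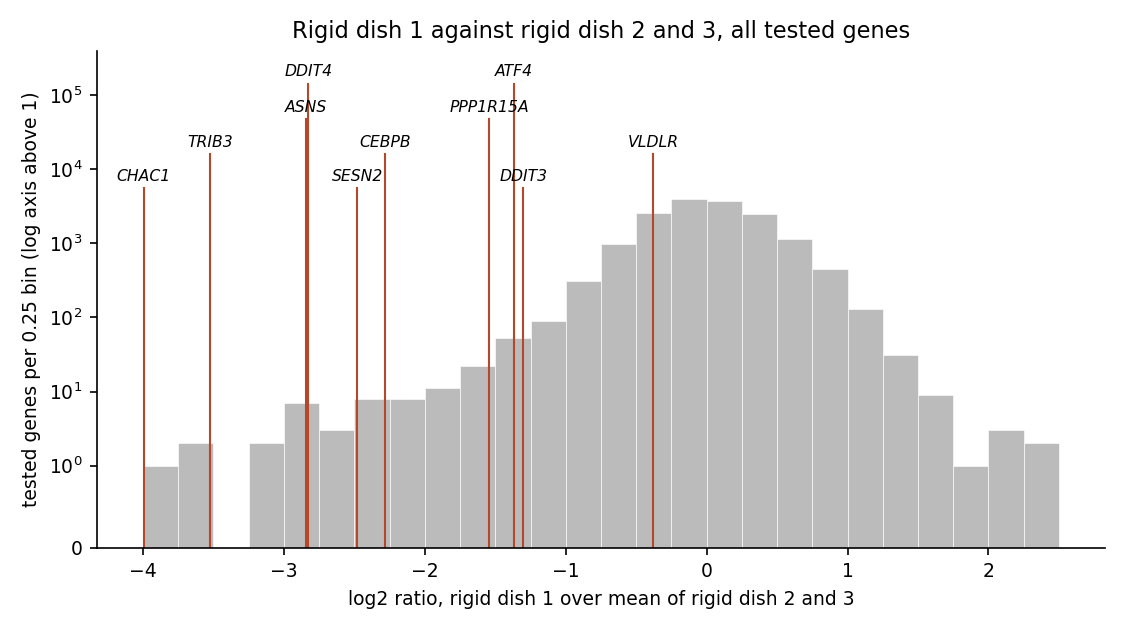
Distribution over 16098 tested genes of the log2 ratio of rigid dish 1 to the mean of rigid dish 2 and 3 (bins of 0.25, count axis logarithmic above 1), with red lines at the 10 stress response genes. CHAC1 and TRIB3 lie at the far left end, and VLDLR lies within the bulk of genes.

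To separate the level of ATF4 from that of its partners, each gene was expressed relative to ATF4 in the same library, on the TPM scale. This ratio was chosen after the values were seen, so its p-values describe the separation of the groups only. ATF4 itself went from a mean of 644 TPM on the rigid dish to 331 TPM in soft gel. A gene at an unchanged level would therefore also rise in this ratio. How many of all tested genes would separate in the same way was not counted. DDIT3 stood at 17.6, 19.2 and 15.6 per 100 TPM of ATF4 in rigid dish 1, 2 and 3, against 40.8, 46.2 and 37.2 in soft gel 1, 2 and 3. The ratio hardly differed among the rigid dish libraries, rigid dish 1 included, and was 2.37-fold higher in soft gel. PPP1R15A stood at 10.1, 11.1 and 11.3 per 100 TPM of ATF4 in rigid dish 1, 2 and 3, against 42.8, 31.0 and 37.3 in soft gel 1, 2 and 3, a 3.39-fold difference, again with rigid dish 1 beside rigid dish 2 and 3. VLDLR stood at 7.73, 4.01 and 3.24 per 100 TPM of ATF4 in rigid dish 1, 2 and 3, against 12.3, 12.8 and 10.6 in soft gel 1, 2 and 3, with a wider spread on the rigid dish. In these 3 genes every soft gel library was above every rigid dish library (exact permutation p = 0.1 each, two-sided, the smallest that 3 against 3 allows, and 0.3 adjusted over 9 ratios). In the other 6 the groups overlapped, and TRIB3 went from 7.68 per 100 TPM of ATF4 in rigid dish 1 to 33.7 and 33.8 in rigid dish 2 and 3, so that it differed between rigid dish libraries more than ATF4 itself did.

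**Figure D4:**
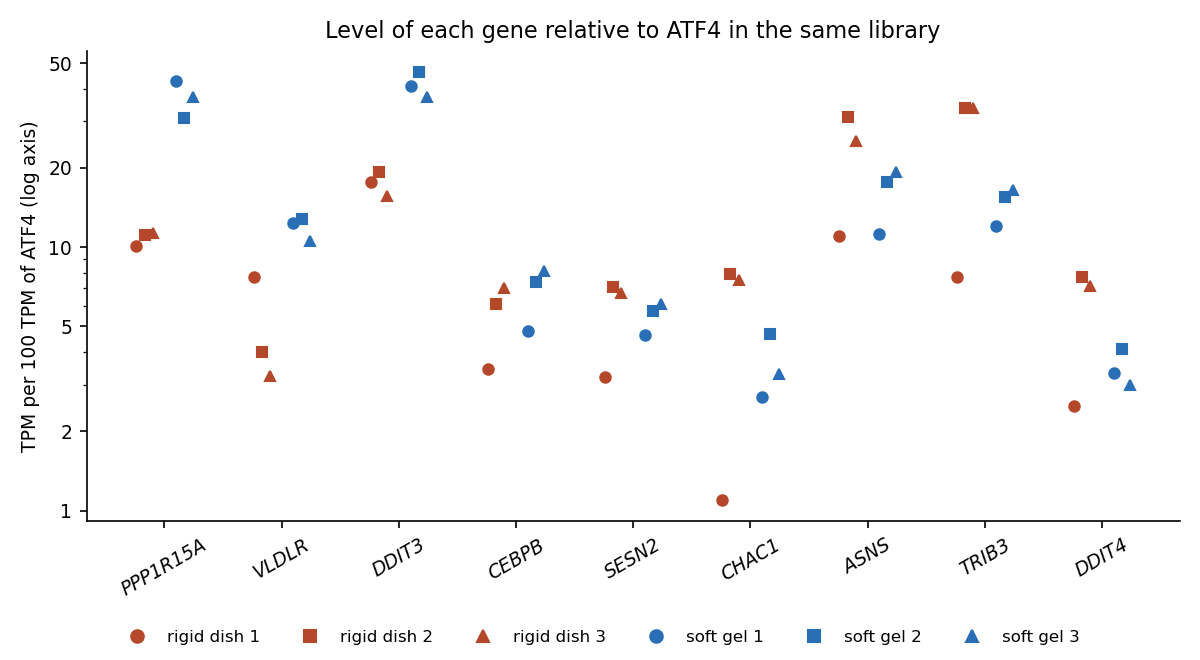
TPM of each gene per 100 TPM of ATF4 in the same library (log axis), ordered by the difference between groups. For PPP1R15A and DDIT3 the rigid dish libraries lie together and below soft gel, whereas for CHAC1, ASNS and TRIB3 rigid dish 1 lies below rigid dish 2 and 3.

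By TPM the order on the rigid dish was ATF4, TRIB3, ASNS, DDIT3, PPP1R15A, DDIT4, CHAC1, SESN2, CEBPB, VLDLR, and in soft gel ATF4, DDIT3, PPP1R15A, ASNS, TRIB3, VLDLR, CEBPB, SESN2, CHAC1, DDIT4. On the rigid dish, only ATF4 was clear of its neighbour, and the ranges of all the others ran into the next. In soft gel ATF4 was clear of DDIT3, PPP1R15A of ASNS, and VLDLR of CEBPB, while the other neighbours overlapped. DDIT3 moved from the fourth place (112 ± 43.2 TPM) to the second (136 ± 13.5 TPM), and TRIB3 from the second (186 ± 137 TPM) to the fifth (49.0 ± 12.1 TPM). This holds for the group means only. In rigid dish 1 alone DDIT3 was already the second (64.1 TPM) and TRIB3 the sixth (28.0 TPM).

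Other known ATF4 targets were counted by list, to be read against the 13.2% of all tested genes that were lower and the 15.4% that were higher (17.7% and 19.6% without rigid dish 1). Among serine and one-carbon enzymes, 7 of 9 tested genes were lower and 0 higher (8 and 0 without rigid dish 1); higher were 0 at an unadjusted p below 0.05 and 0 by DESeq2. PHGDH, the first enzyme of serine synthesis, held 129, 410.0 and 455 CPM in rigid dish 1, 2 and 3 and 73.6, 90.6 and 122 CPM in soft gel 1, 2 and 3 (log2 fold change -1.79, edgeR adjusted p = 0.0123). PSAT1, the next enzyme, fell by 1.50 on the log2 scale (edgeR adjusted p = 0.0386) and ALDH1L2, a mitochondrial folate enzyme, by 1.65 (0.0362). Rigid dish 1 was at least 2-fold below rigid dish 2 and 3 in 8 of these 9 genes, against 1.28% of all tested genes. Over all alternatives, the count lower ran from 0 to 8.

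Among amino acid transporters, 4 of 9 tested genes were lower and 0 higher (6 and 0 without rigid dish 1); higher were 0 at an unadjusted p below 0.05 and 0 by DESeq2. SLC7A5, the large neutral amino acid exchanger, held 119, 631 and 669 CPM in rigid dish 1, 2 and 3 and 73.9, 141 and 172 CPM in soft gel 1, 2 and 3 (log2 fold change -1.88, edgeR adjusted p = 0.0323). Over all alternatives, 1 to 6 transporters and 0 to 8 synthetases were lower. SLC1A5, a glutamine carrier (-1.35, edgeR adjusted p = 0.0269), and SLC1A4 (-1.20, 0.0248) were also lower. SLC7A11, the cystine importer, held 37.9, 109.7 and 92.1 CPM in rigid dish 1, 2 and 3 and 96.8, 147 and 81.9 CPM in soft gel 1, 2 and 3 and did not pass (edgeR adjusted p = 0.361). It is named after its values were seen, since its soft gel libraries lay near rigid dish 2 and 3, unlike those of SLC7A5. Of aminoacyl-tRNA synthetases with the exportin XPOT, 5 of 13 tested genes were lower and 1 higher (8 and 1 without rigid dish 1). YARS (-1.18, edgeR adjusted p = 0.0161), SARS (-1.04, 0.0331) and MARS (-0.98, 0.0324) fell most, and XPOT rose (0.75, 0.0285).

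In the list of other ATF4 and CHOP targets, 3 of 23 tested genes were lower and 3 higher (9 and 3 without rigid dish 1), which with all libraries is near the shares over all genes. EIF4EBP1, a repressor of cap-dependent translation, fell by 1.96 on the log2 scale (edgeR adjusted p = 0.0202), the secreted glycoprotein gene STC2 by 1.43 (0.0158) and the transaminase gene GPT2 by 1.35 (0.015). KLHL24 (1.51, edgeR adjusted p = 0.00165), CCPG1, an ER-phagy receptor (1.43, 0.0103), and ERO1B, an ER oxidase (0.61, 0.0366), rose. Over all alternatives, 0 to 9 of these were lower and 1 to 5 higher. The element TGATGNAA was found in the promoter windows of 4 of 8 transporters, 7 of 11 synthetases and 4 of 16 other targets with a window. Among serine and one-carbon genes with a window it was found in 0 of 5. Over all 27305 genes with a window the share was 4.46%. The remaining genes of these lists had no window and were not searched.

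Where rigid dish 1 was at least 2-fold below rigid dish 2 and 3, the mean of soft gel was placed on the log2 scale between rigid dish 1 (0%) and the mean of rigid dish 2 and 3 (100%). ATF4 lay at -0.634%, DDIT4 at 13.3%, ASNS at 19.9%, TRIB3 at 26.3%, SESN2 at 30.8%, CHAC1 at 38.3% and CEBPB at 42.0%, against 89.0% for DDIT3 and 118% for PPP1R15A. All 8 serine and one-carbon genes and all 6 synthetases so placed lay below 50%, and 4 of 6 transporters and 6 of 10 other targets did. Those at 50% or more were SLC7A11 (107%), SLC3A2 (74.7%), ATF3 (121%), GDF15 (81.9%), NUPR1 (70.4%) and HERPUD1 (66.9%), named after their values were seen. GDF15, a stress cytokine, held 136, 564 and 721 CPM in rigid dish 1, 2 and 3 and 382, 487 and 585 CPM in soft gel 1, 2 and 3. HERPUD1, a part of ER-associated degradation, held 163, 476 and 451 CPM in rigid dish 1, 2 and 3 and 312, 341 and 330.5 CPM in soft gel 1, 2 and 3. This placement was chosen after the data were seen and rests on a single library at 1 end, so it carries no test. It was made for these lists only, so no share over all genes stands beside the counts below 50%.

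**Figure D5:**
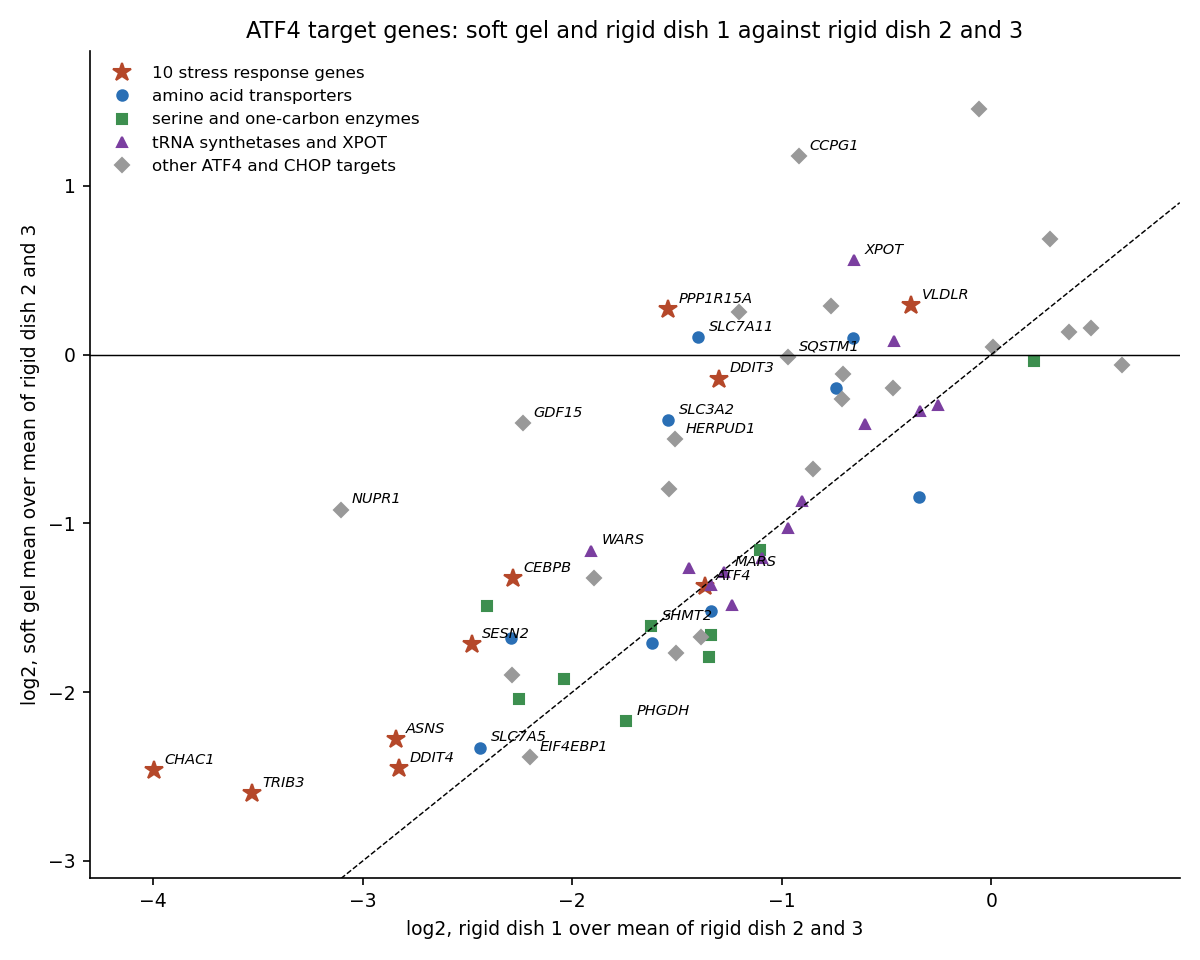
Soft gel mean (vertical axis) and rigid dish 1 (horizontal axis), each as a log2 ratio to the mean of rigid dish 2 and 3, for the 10 stress response genes (stars) and 4 lists of other ATF4 targets. Genes on the dashed line are as low in soft gel as in rigid dish 1 (ATF4, SHMT2, MARS), and genes at the horizontal line are at the level of rigid dish 2 and 3 in soft gel (DDIT3, SLC7A11).

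Upstream of ATF4, 4 of 19 genes of the eIF2 alpha kinases and the eIF2 machinery were lower and 2 higher. The count called is near the 28.6% of all tested genes. Rigid dish 1 was at least 2-fold below rigid dish 2 and 3 in 0 of the 19. Over all tested genes that share was 1.28%, so 0 of 19 does not set this list apart. The eIF2 list counts were 3 higher and 6 lower without rigid dish 1, and 0 to 3 higher and 0 to 7 lower over all alternatives. EIF2AK3, the ER stress kinase PERK, rose from 15.6 ± 3.46 to 26.3 ± 2.04 CPM (log2 fold change 0.75, edgeR adjusted p = 0.0132). EIF2AK4, the amino acid sensor GCN2, fell from 169 ± 9.60 to 130.0 ± 7.66 CPM (-0.38, edgeR adjusted p = 0.0271). EIF2AK1, the heme-regulated kinase (-0.11, edgeR adjusted p = 0.411), and EIF2AK2, the double-stranded RNA kinase PKR (-0.15, 0.477), did not pass. PPP1R15B, the constitutive partner of PPP1R15A, had a log2 fold change of 0.20 and did not pass (edgeR adjusted p = 0.199). OMA1, a mitochondrial protease that can signal to eIF2 alpha kinases, rose (0.88, edgeR adjusted p = 0.0122). Of 14 tested relatives and partners of ATF4 and the C/EBP proteins, 1 was higher (ATF2, 0.63, edgeR adjusted p = 0.0229) and 0 lower (1 at an unadjusted p below 0.05 and 1 by DESeq2), against 15.4% and 13.2% of all genes. The partner counts were 2 higher and 3 lower without rigid dish 1, and 0 to 4 higher and 0 to 3 lower over all alternatives. CEBPG, another C/EBP partner of ATF4, held 67.0, 115 and 103 CPM in rigid dish 1, 2 and 3 and 64.1, 76.4 and 67.3 CPM in soft gel 1, 2 and 3 and did not pass (edgeR adjusted p = 0.095, and 0.00342 without rigid dish 1).

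The genes closest to ATF4 in profile were sought among 10051 other genes with a mean of 10 CPM or more, by the root mean square distance between log2 CPM profiles over the 6 libraries scaled to an SD of 1. They were MFSD2A (0.038), UBAP1 (0.047), SHMT2 (0.056), EDF1 (0.061), SARS (0.070). SHMT2 is a mitochondrial serine enzyme and SARS the seryl-tRNA synthetase, and both stand in the lists above. Scaling hides the size of a difference, and MFSD2A ran only from 17.3 to 22.7 CPM. The genes closest to DDIT3 were UFC1 (0.121), MRPL15 (0.123), AMIGO2 (0.155), ZNF362 (0.191), HPS4 (0.204), none of which is in the lists above. Among the 10 genes themselves, TRIB3 and SESN2 were the closest pair (0.073) and ATF4 and VLDLR the most distant (1.56).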

How the data were processed

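RNA of 6 libraries was sequenced, and a table of 58884 genes was deposited. Per the submitters' processing notes, HISAT2, HTSeq and hg38 were used, without versions. The authors deposited estimated counts per gene (not whole for 11.3% to 13.0% of genes), TPM values, and their own comparison as a linear ratio (fold), a log2 ratio and p-values; the quantifier and strand setting are not given in the sources used here. Counts were rounded, filtered with filterByExpr (minimum count 10), scaled by TMM and compared with edgeR's quasi-likelihood test (4.0.16, limma 3.58.1, R 4.3.3) over both groups, with Benjamini-Hochberg adjustment over 16098 genes and a threshold of 0.05. Each SE was taken from the test statistic. Log2 ratios between libraries used log2(CPM + 0.5). DESeq2 (1.42.0) was an alternative. The pipeline was tested on simulated data. Gene positions came from GENCODE release 29 and promoters from RefSeq, both on hg38.

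The genes and lists were chosen with earlier results of these data known. All 10 genes are given. From each list, up to 3 risen and 3 fallen genes with 5 CPM or more were named, and all genes of the upstream, partner and paralogue lists could be. The text marks the genes named apart from it, and the ratios to ATF4 and the placement of soft gel were chosen after the values were seen. Alternatives were DESeq2 size factors, upper quartile factors, other filters, the replicate number as a block, omission of each library, limma-voom, DESeq2 itself, and limma on log2(TPM + 1) and log2(TPM + 0.1).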

Additional observations from a re-analysis of the deposited data

How the results depend on the processing

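On leaving out 1 library, log2 fold changes ran from -1.38 to -0.85 for ATF4, -2.62 to -1.72 for TRIB3, -2.29 to -1.42 for ASNS, -2.52 to -1.60 for CHAC1, -1.74 to -0.98 for SESN2, -2.50 to -1.69 for DDIT4, -1.35 to -0.50 for CEBPB, 0.29 to 0.49 for VLDLR, 0.26 to 0.86 for PPP1R15A and -0.15 to 0.41 for DDIT3, where the negative value, without rigid dish 1, was the only change of direction in any alternative run for these 10 genes. Of the 10, 0 to 7 were then called lower and 0 higher, and over all genes 1803 to 6164 were called (1006 to 3239 higher, 797 to 2925 lower). With limma-voom ATF4 (-0.93), TRIB3 (-1.46) and DDIT4 (-1.51) lost their calls, leaving 0 called lower (1 at an unadjusted p below 0.05). They also did with log2(TPM + 1), at -0.88, -1.38 and -1.41, and with log2(TPM + 0.1), at -0.88, -1.38 and -1.46, again leaving 0 called lower (1 unadjusted). Over all genes limma-voom gave 4425 calls (2380 higher, 2045 lower). The TPM scales gave 2313 calls (1345 higher, 968 lower) and 2287 calls (1327 higher, 960 lower). TRIB3 was also lost with upper quartile factors (-2.04, adjusted p = 0.0504), the CPM filter (-2.07, 0.0523) and DESeq2 (-2.12, 0.067). VLDLR was lost with DESeq2 size factors (0.37), DESeq2 (0.37) and no low-count filter (0.35), and the first 2 left 0 of the 10 called higher (1 unadjusted). ASNS gained its call with DESeq2 size factors (-1.84). Without a low-count filter 7 were called lower, with ASNS at -1.85, CHAC1 at -2.03, SESN2 at -1.32 and CEBPB at -0.95, and PPP1R15A (0.57) was called higher. In that fit edgeR estimated infinite prior degrees of freedom against 5.30 with the filter, so each gene took the common trend of spread in place of its own. With the replicate number as a block, 7 were called lower and 2 higher, with ASNS at -1.45, CHAC1 at -1.42, SESN2 at -0.97, CEBPB at -0.67 and PPP1R15A at 0.76. Deviations of same-numbered libraries from their group means correlated at 0.272, 0.0163 and 0.406. Rigid dish 1 and 3 each correlated best with the soft gel library of the same number. Rigid dish 2 was slightly closer to soft gel 3 (0.0418), and soft gel 2 was closer to rigid dish 1 (0.194). These values do not settle whether the numbers pair the libraries and the labels do not say so, so the main fit used no pairing. The block raised the calls over all genes to 6442. The cause of the other changes was not tested.

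Fold changes of some other named genes, none of them called with all libraries, turned sign. Without rigid dish 1, SLC3A2 (-0.40, edgeR adjusted p = 0.033), HERPUD1 (-0.51, 0.00391) and NUPR1 (-0.97, 0.00264) were called lower. SLC3A2 was -0.0339, but 0.00924 with upper quartile factors, 0.11 with the block, 0.12 with limma-voom, 0.17 and 0.18 on the TPM scales, and -0.40 to 0.16 on leaving out 1 library. HERPUD1 (-0.15) was 0.00497 with limma-voom, 0.12 on both TPM scales, and -0.51 to 0.0877 on leaving out 1. GDF15 (0.0343) was -0.00544 with DESeq2 size factors, -0.00559 with DESeq2, -0.0254 without a filter, and -0.41 to 0.40 on leaving out 1. NUPR1 (-0.43) was 0.28 with limma-voom, 0.49 with log2(TPM + 1) and 0.81 with log2(TPM + 0.1). EIF2AK1 (-0.11) was 0.0138 and 0.0141 on the TPM scales, and EIF2AK2 (-0.15) ran from -0.31 to 0.00699 on leaving out 1.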

Other observations

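The counts of the lists below are to be read against the 15.4% of all tested genes that were higher and the 13.2% that were lower (19.6% and 17.7% without rigid dish 1). Of 13 tested paralogues of the 10 genes, 4 were higher in soft gel and 0 lower (2 at an unadjusted p below 0.05 and 2 by DESeq2). Rigid dish 1 was at least 2-fold below rigid dish 2 and 3 in 0 of the 13, which is near the 1.28% of all tested genes. Paralogue counts were 5 higher and 1 lower without rigid dish 1, and 2 to 5 higher and 0 to 2 lower over all alternatives. DDIT4L, the REDD2 paralogue of DDIT4, held 3.89, 3.19 and 4.44 CPM in rigid dish 1, 2 and 3 and 17.3, 20.1 and 21.1 CPM in soft gel 1, 2 and 3 and rose by 2.34 on the log2 scale (edgeR adjusted p = 0.000156), while DDIT4 fell. TRIB1 (0.83, edgeR adjusted p = 0.0194) and TRIB2 (0.58, 0.00614) rose, while TRIB3 fell. SESN3 rose (0.80, edgeR adjusted p = 0.0379), and SESN1 did not pass (0.30, 0.125).

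In the other arms of the unfolded protein response, 2 of 20 tested genes were higher and 2 lower, both below the shares over all genes. The counts of these arms were 4 higher and 5 lower without rigid dish 1, and 2 to 4 higher and 0 to 5 lower over all alternatives. DNAJB9, an ER co-chaperone, went from 13.4 ± 1.80 to 36.8 ± 4.21 CPM (SD, n = 3 each, edgeR adjusted p = 0.000574), and EDEM1, of ER-associated degradation, rose as well (0.58, 0.00917). HSPA5, the main ER chaperone BiP, fell (-0.47, edgeR adjusted p = 0.0121), as did HYOU1 (-0.38, 0.0377). Of 20 mTORC1 partners of DDIT4 and SESN2, 5 were higher and 0 lower (2 at an unadjusted p below 0.05 and 2 by DESeq2), among them RRAGD (0.54, edgeR adjusted p = 0.0153) and TSC1 (0.46, 0.0235). The mTORC1 counts were 5 higher and 3 lower without rigid dish 1, and 0 to 7 higher and 0 to 3 lower over all alternatives. Of 11 hypoxia genes, 2 were lower, the glucose transporter SLC2A1 (-0.96, edgeR adjusted p = 0.00142) and PDK1 (-0.87, 0.0334), and 1 was higher, MXI1 (1.08, 0.0033). The hypoxia counts were 3 higher and 3 lower without rigid dish 1, and 1 to 4 higher and 1 to 4 lower over all alternatives. Of 6 glucocorticoid response genes, 2 were higher, DUSP1 (2.37, edgeR adjusted p = 0.000336) and SGK1 (1.10, 0.00154), and 1 was lower, FKBP5 (-0.64, 0.0375). The glucocorticoid counts were 2 higher and 1 lower without rigid dish 1, and 2 higher and 0 to 1 lower over all alternatives. Of 8 reelin and lipoprotein receptor partners of VLDLR, 2 were higher and 0 lower (0 at an unadjusted p below 0.05 and 0 by DESeq2). The receptor partner counts were 3 higher and 0 lower without rigid dish 1, and 1 to 4 higher and 0 lower over all alternatives. The ligand APOE went from 6.73 ± 2.74 to 44.2 ± 8.34 CPM (edgeR adjusted p = 0.000536).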
